A study of Mus musculus with 50 samples.

Results

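The tumor suppressor p53 and its pathway were followed in RNA sequencing of 50 mouse mammary gland (MG) tumors through 10 genes: Trp53, Cdkn1a, Mdm2, Bax, Ccng1, Bbc3, Phlda3, Sesn2, Zmat3 and Cdkn2a. The genes were taken by symbol, and each symbol matched 1 entry of the 37701 genes in the deposited table. All 10 were among the 16733 genes with a mean RPKM (reads per kilobase of gene length, scaled to library size) of at least 0.5, which were the genes tested.

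p53 is a transcription factor that is held at a low level by Mdm2, a ubiquitin ligase that marks it for degradation, and that accumulates after DNA damage or oncogene activation. It then switches on genes that stop the cell cycle, repair DNA or start apoptosis, and also Mdm2 itself, which closes a feedback loop. Cdkn2a encodes p16Ink4a, an inhibitor of the kinases that phosphorylate the retinoblastoma protein, and, in another reading frame, p19Arf, an inhibitor of Mdm2. Missense mutations in the DNA-binding domain of p53 impair this program and are among the most frequent lesions of human breast cancer.

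All 50 tumors came from female p53R270H/+WAPCre mice, so the vehicle tumors carry the p53 mutation as well. In this model a Cre recombinase driven by the promoter of the whey acidic protein gene switches on 1 mutant allele, with the substitution R270H, in mammary epithelium next to 1 wild-type allele. From 8 weeks of age the mice received vehicle, insulin, glargine (a long-acting insulin analogue), X10 (an insulin analogue with raised affinity for the IGF1 receptor) or IGF1 under the skin every other day, and a tumor was taken at 1 cm3, 24 h after the last injection. Each group held 10 tumors, and the number in each title was taken as that of its own mouse, which the titles do not state. The tumors titled Untreated in the labels were taken as the vehicle group, because the series design gives vehicle as the only group beside the 4 ligands. The tumor titled IFG1_132 was taken as an IGF1 tumor. The study chose tumors with a mesenchymal appearance and a latency near the median of their group, so the tumors are not a random sample. The comparison between groups asks whether the p53 program differs between tumors that grew under different receptor ligands. The RPKM values count both Trp53 alleles together, and both Cdkn2a transcripts together.

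The libraries held 26.6 to 51.9 M reads (median 40.9 M), recovered from the steps in the RPKM values, and the group medians lay between 35.4 M reads for X10 and 44.0 M reads for vehicle. The 10 genes were therefore counted with 119 reads (the lowest Bbc3 value) to 32447 reads (the highest Cdkn2a value) in a tumor, and counting error was small beside the spread between tumors. The tumor labelled X10_105 stood apart, with a median correlation of 0.85 to the other tumors over all tested genes and the highest score of epithelial markers (2.27, a mean of standardized log2 levels). Of the 5 mesenchymal markers, Vim, Col1a1 and Col1a2 were at 237.1 RPKM or more in every tumor, whereas Pdgfrb ran from 12.1 to 77.3 and Acta2 from 6.63 to 656.3 RPKM. The epithelial markers varied widely (Krt8 from 2.39 to 1616 RPKM), and Krt5 was listed at 0 in 2 tumors. In bulk tissue, fewer cells of a type and less RNA per cell cannot be told apart.

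A p53 response element is built of 2 copies of a degenerate 10-base unit, here called the p53 decamer, whose core is a C and a G separated by any A or T pair. RefSeq promoter windows of GRCm38.p6, which span 250 bases before to 50 after a transcription start, were given for 9 of the 10 genes. An exact decamer was found in at least 1 window of 5 of these genes, Trp53, Cdkn1a, Mdm2, Bax and Ccng1, and in 8.36% of all 32851 windows. None was found in the windows of Bbc3, Phlda3, Sesn2 and Cdkn2a. The 2 figures differ in unit, since a gene can have more than 1 window: Cdkn1a and Cdkn2a have 2 and Bbc3 has 3. A pair of decamers 0 to 13 bases apart with at most 1 mismatch in all was found for Cdkn1a and Ccng1, and is held by 0.627% of windows. The decamer is its own reverse complement, so 1 search covers both strands. The stretches that hold these letters in 4 genes are shown on the strand of the gene, with the decamers in capitals (a copy with 1 mismatch included where it completes a pair), because these genes make up the arrest, feedback and apoptosis branches whose levels are compared below.
Cdkn1a (plus strand, chr17:29090897-29090956): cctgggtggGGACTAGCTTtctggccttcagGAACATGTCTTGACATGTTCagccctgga
Ccng1 (minus strand, chr11:40755442-40755501): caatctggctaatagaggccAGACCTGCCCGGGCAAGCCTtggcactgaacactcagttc
Mdm2 (minus strand, chr10:117710910-117710969): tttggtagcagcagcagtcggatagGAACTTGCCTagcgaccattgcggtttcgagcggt
Bax (minus strand, chr7:45467065-45467124): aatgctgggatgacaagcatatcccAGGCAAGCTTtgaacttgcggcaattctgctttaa
The Cdkn1a stretch ends 23 bases before the start of 1 of the 2 windows given for this gene. It holds 2 adjoining decamers with 1 mismatch in all, a form found in 0.067% of windows, and 1 more exact decamer lies upstream of them. The other Cdkn1a window, of a start farther downstream, held no exact decamer and no pair. The Ccng1 stretch also holds 2 adjoining decamers with 1 mismatch. Binding of p53 was not measured in these tumors, and the letters alone describe the windows only.

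Trp53 (ENSMUSG00000059552; GRCm38 chromosome 11, 69580359 to 69591873, plus strand) varied 15.7-fold between tumors. Over the 50 tumors the lowest value was 6.60 RPKM, the median 42.7 and the highest 103.4, and its standard deviation on the log2 scale was 0.73, above that of 82.8% of the tested genes. In vehicle tumors it ranged from 10.5 to 62.3 RPKM around a median of 42.5. With insulin it ranged from 32.2 to 69.8 RPKM around 46.4, and with glargine from 33.6 to 66.8 RPKM around 43.4. With X10 it ranged from 19.1 to 103.4 RPKM around 39.1, and with IGF1 from 6.60 to 86.6 RPKM (the tumor titled IFG1_132) around 38.2. The 5 groups overlapped, and no tumor of the insulin or glargine group fell below 32.2 RPKM.

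Only 4 tumors had a Trp53 value under 15 RPKM, namely IGF1_145 at 6.60, Untreated_197 (vehicle) at 10.5, IGF1_158 at 10.7 and Untreated_186 (vehicle) at 11.1. The next lowest was X10_116 at 19.1 RPKM. In these 4 tumors Cdkn1a ranked between 1 and 18 from the lowest of 50 and Zmat3 between 2 and 22. Ccng1, also a p53 target, ranked between 27 and 49, and Cdkn2a between 29 and 50. The other genes were spread more widely, with Mdm2 from 1 to 32, Bbc3 from 18 to 50, Bax from 13 to 49, Phlda3 from 11 to 40 and Sesn2 from 10 to 50. Tumor IGF1_145 had the lowest Mdm2 value of the 50 tumors (33.0 RPKM) and a high Cdkn2a value (503.7 RPKM, ranked 45 from the lowest). Tumor IGF1_158 had the lowest Cdkn1a value (16.0 RPKM) and the highest values of Bbc3 (15.0), Sesn2 (12.2) and Cdkn2a (881.2 RPKM). Tumor Untreated_197 had Mdm2 at 52.0 RPKM and Cdkn1a at 30.6 RPKM, ranked 32 and 15 of 50. Tumor Untreated_186 had Mdm2 at 44.4 and Cdkn1a at 26.4 RPKM, ranked 19 and 9. No test was made of these 4 tumors as a group, since they were set apart by their Trp53 level.

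A processed pseudogene of Trp53, Trp53-ps, carries nearly the same sequence on another chromosome, and its values limit how exactly Trp53 reads can be assigned. Trp53-ps had a mean of 13.4 RPKM and followed Trp53 closely over the 50 tumors (Pearson r = 0.90 and Spearman rho = 0.83, permutation p = 1e-05, the smallest the resamples can give). Without the 4 tumors under 15 RPKM the correlation was 0.77 over 46 tumors. The ratio of Trp53 to Trp53-ps ranged from 2.10 to 12.3 around a median of 3.39.

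The regulators of p53 were both well expressed. Mdm2 (ENSMUSG00000020184; chromosome 10, 117688875 to 117710758, minus strand) was among the more even genes, with a lowest value of 33.0 RPKM, a median of 49.0 and a highest value of 101.7 in tumor X10_95, which also held the highest Trp53 value. Its log2 standard deviation of 0.33 exceeded that of only 28.5% of tested genes. Cdkn2a (ENSMUSG00000044303; chromosome 4, 89274471 to 89294653, minus strand) was the most abundant of the 10 genes, with a mean of 342.1 ± 159.8 RPKM (SD, n = 50), rank 296 of the 16733 tested genes. Its log2 standard deviation was 0.74, close to the 0.73 of Trp53, and its values ran from 71.7 RPKM in an X10 tumor through a median of 320.8 to 881.2 RPKM in IGF1_158.

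Next to Phlda3, Cdkn2a had the largest share of its variance between the treatment groups. In vehicle tumors it ranged from 205.3 to 492.6 RPKM around a median of 333.0. With insulin the range was 154.9 to 596.3 RPKM around 329.0, and with glargine 104.2 to 474.9 RPKM around 297.9. With X10 it ran from 71.7 RPKM in X10_105 to 515.3 RPKM around 257.7, and with IGF1 from 271.6 to 881.2 RPKM around 446.8. The ranges overlapped in all 5 groups, and only X10 and glargine tumors fell below 150 RPKM. The log2 fold change of IGF1 against X10 was 1.07 (SE 0.29), with an unadjusted p of 0.000626 and an adjusted p of 0.344 in limma over all tested genes. The 6 epithelial markers were all lower in IGF1 than in X10 (median log2 fold change -1.42, 2 of 6 with an unadjusted p under 0.05, 0 adjusted), with a median summed level of 139.5 against 308.7 RPKM. With the epithelial score in the fit the Cdkn2a difference was 0.83, and without X10_105 it was 0.89. The log2 fold change of X10 against vehicle was -0.67 (SE 0.29, unadjusted p = 0.0252, adjusted p = 0.392 in limma), and without X10_105 it was -0.50 (unadjusted p = 0.0825), whereas that of IGF1 against vehicle was 0.39 (adjusted p = 0.771). Treatment accounted for 24.5% of the variance of log2 Cdkn2a (F test p = 0.00849, adjusted p = 0.244 in limma).

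Among the genes of cell cycle arrest, Cdkn1a (ENSMUSG00000023067; chromosome 17, 29090976 to 29100727, plus strand), which encodes the kinase inhibitor p21, ranged from 16.0 to 125.8 RPKM around a median of 44.4. Its median was 45.6 RPKM in the vehicle group, 38.9 with insulin, 29.6 with glargine, 53.6 with X10 and 44.1 RPKM with IGF1, and the vehicle group alone spanned 19.4 to 125.8 RPKM. The largest difference between groups, X10 over glargine, was 0.48 on the log2 scale with an adjusted p of 0.626 in limma. Ccng1 (ENSMUSG00000020326; chromosome 11, 40748552 to 40755311, minus strand), which encodes cyclin G1, a partner of a phosphatase that acts on Mdm2, ranged from 11.1 to 66.9 RPKM around 27.7. Its group medians ran from 25.4 RPKM in vehicle to 30.0 RPKM in X10, and the groups overlapped. Zmat3 (ENSMUSG00000027663; chromosome 3, 32334792 to 32366014, minus strand), which encodes an RNA-binding p53 target, was the lowest of the 10 genes on the RPKM scale, from 2.26 to 6.15 around 3.70.

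The 2 apoptosis genes encode members of the BCL2 family. Bax (ENSMUSG00000003873; chromosome 7, 45461697 to 45466898, minus strand), which permeabilizes the mitochondrial outer membrane, ranged from 18.3 to 49.9 RPKM around 30.3. Bbc3 (ENSMUSG00000002083; chromosome 7, 16308393 to 16318205, plus strand), which encodes the BH3-only protein Puma, ranged from 3.44 to 15.0 RPKM around 5.41. The median of Bbc3 was 5.69 RPKM in the vehicle group, 5.14 with insulin, 5.53 with glargine, 4.56 with X10 and 6.03 RPKM with IGF1. Every X10 tumor had a Bbc3 value of at most 6.28 RPKM, whereas 4 IGF1 tumors lay above it, at 6.77, 8.50, 9.60 and 15.0 RPKM. IGF1 exceeded X10 by 0.47 on the log2 scale (SE 0.16), with an adjusted p of 0.344 in limma.

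The remaining targets dampen growth signals. Phlda3 (ENSMUSG00000041801; chromosome 1, 135766119 to 135769136, plus strand) encodes a pleckstrin-homology protein that competes with AKT for the membrane. In vehicle tumors it ranged from 49.4 to 149.5 RPKM around a median of 96.7, and in X10 tumors from 54.8 to 164.2 RPKM (X10_105) around 73.6. In insulin tumors it ranged from 44.0 to 81.5 RPKM around 56.4, and in glargine tumors from 48.0 to 89.1 RPKM around 60.4. In IGF1 tumors it ranged from 50.2 to 118.7 RPKM around 70.02. The highest insulin and glargine tumors lay below a set of 5 vehicle, 4 X10 and 1 IGF1 tumors that all had 113.2 RPKM or more, while the lower parts of the groups overlapped. Insulin against vehicle gave a log2 fold change of -0.68 (SE 0.20, 95% confidence interval -1.08 to -0.27), with an unadjusted p of 0.00148 and an adjusted p of 0.264 in limma. In the same comparison all 6 epithelial markers were lower (median log2 fold change -0.59) and all 5 leukocyte markers higher (median 0.55), with 0 of the 11 past the adjusted threshold. The Phlda3 value was -0.59 with the epithelial score and -0.55 with the leukocyte score in the fit. Glargine against vehicle gave -0.53 (SE 0.20, adjusted p = 0.789), and X10 against insulin gave 0.65 (SE 0.20, adjusted p = 0.146), or 0.55 without X10_105. In X10 against insulin 5 of 6 epithelial markers were higher (median log2 fold change 0.63) and all 5 leukocyte markers lower (median -0.10), and in glargine against vehicle all 4 adipocyte markers were higher (median 1.08), none past the adjusted threshold. Phlda3 had the largest share of its log2 variance accounted for by treatment among the 10 genes (27.5%), with an F test p of 0.00397 and an adjusted p of 0.190.

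Sesn2 (ENSMUSG00000028893; chromosome 4, 132492032 to 132510501, minus strand) encodes sestrin 2, a stress protein that restrains the kinase complex mTORC1. It ranged from 2.99 to 12.2 RPKM around 6.27, with group medians from 4.92 RPKM in glargine to 6.89 RPKM in IGF1. The difference between these 2 groups was 0.45 on the log2 scale (SE 0.14, unadjusted p = 0.00303, adjusted p = 0.569 in limma). In the same comparison all 4 adipocyte markers (median log2 fold change -1.39), all 6 epithelial markers (-0.84) and all 5 mesenchymal markers (-0.54) were lower in IGF1, none past the adjusted threshold, and their part in the Sesn2 difference was not tested beyond the epithelial score, with which it was 0.48. Zmat3 medians ran from 3.02 RPKM in X10 to 4.06 RPKM in insulin, a log2 difference of means of -0.28 for X10 against insulin (SE 0.13, adjusted p = 0.416).

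**Figure D1:**
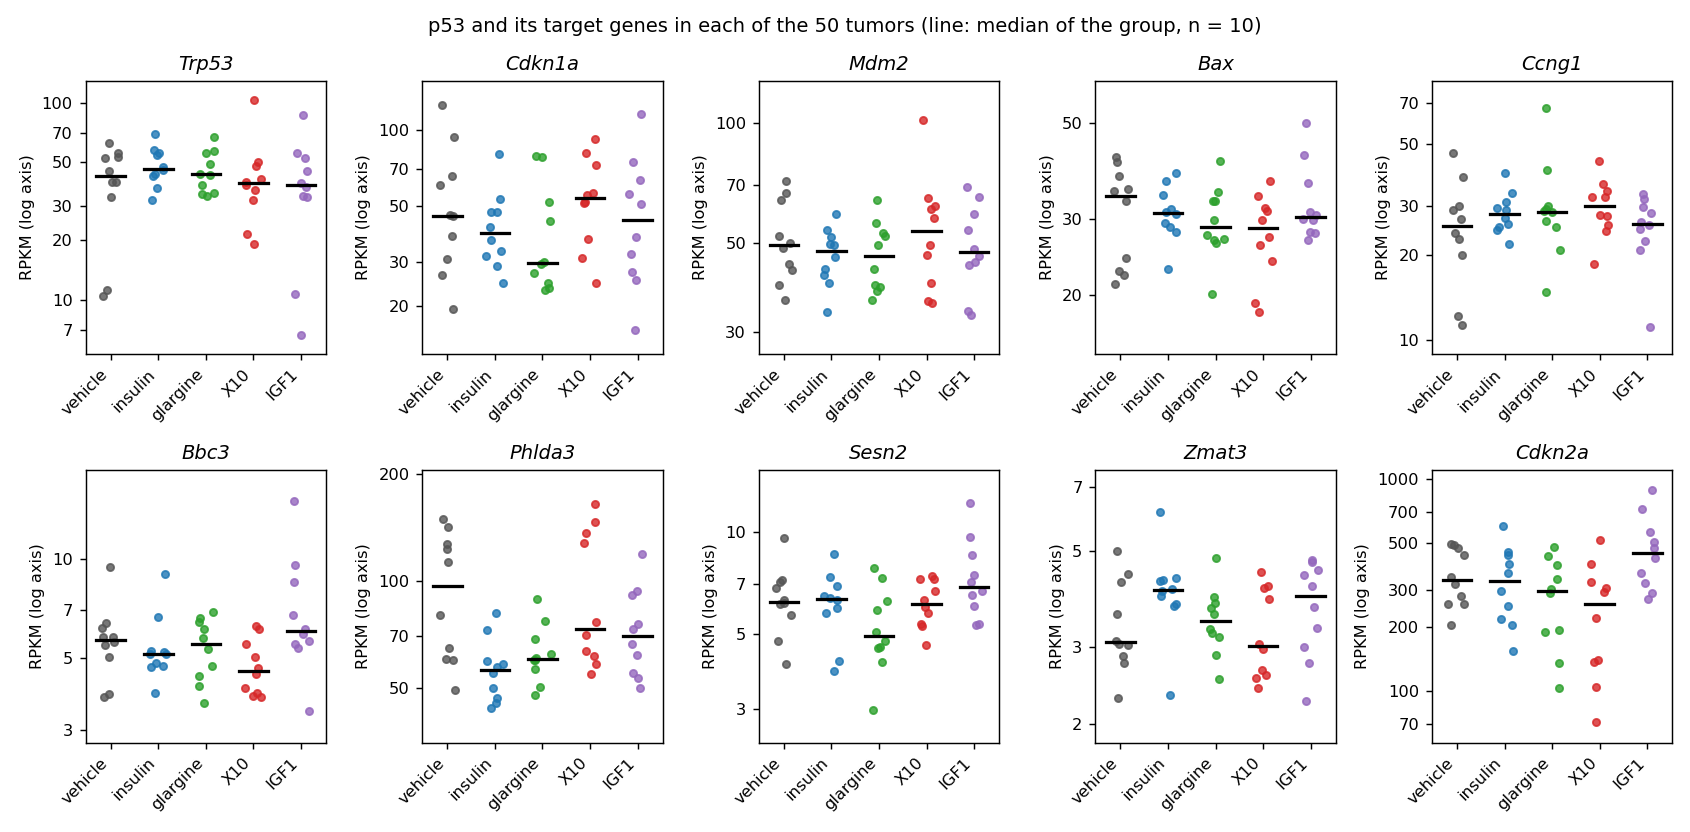
Each point is 1 tumor, the horizontal axis gives the treatment group (10 tumors each) and the vertical axis the RPKM value on a log scale, with a black line at the median of the group. The groups overlap in every panel. The 4 tumors with Trp53 under 15 RPKM are 2 vehicle and 2 IGF1 tumors, and the upper set of Phlda3 values is made of vehicle, X10 and 1 IGF1 tumor.

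Levels are per length, and the length behind each RPKM decides where a gene stands among the others. The lengths recovered from the table equalled the median transcript length in the GENCODE M21 annotation for 6 of the 10 genes. The length used for Mdm2 was 919 bases, and its longest coding transcript is 3.42 times as long. For Cdkn1a this factor was 2.43 and for Bbc3 2.06, whereas it was 1.02 for Cdkn2a and 1.04 for Trp53. The ratio of the RPKM of a gene between tumors does not depend on it.

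None of the 10 genes passed the adjusted threshold of 0.05 in any comparison, and few other genes did. Of all tested genes, 0% passed for insulin and 0% for glargine against vehicle, 0.0657% for X10 against vehicle, 0.00598% for IGF1 against vehicle and 0.155% for X10 and IGF1 together against the other 3 groups. Between the ligands, 0% passed for glargine against insulin, for IGF1 against glargine and for IGF1 against X10, 0.102% for X10 against insulin, 0.00598% for IGF1 against insulin and 1.78% for X10 against glargine. In the F test over the 5 groups 0.102% passed. Without tumor X10_105 the 17 genes of X10 against insulin became 66 and the 298 of X10 against glargine became 460. Leaving it out also moved X10 against vehicle from 11 to 21 genes, X10 and IGF1 against the others from 26 to 110 and the F test from 17 to 55. The smallest adjusted p of a p53 pathway gene over these tests was 0.146, for Phlda3 in X10 against insulin.

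At an unadjusted p under 0.05 the members stood close to the background. Over the 11 comparisons of groups, 10 of 110 gene tests were under it, against 9.15% of the tests of all genes. For insulin against vehicle 1 of 10 genes was under it (Phlda3), against a background of 11.1%. For glargine against vehicle it was 1 of 10 (Phlda3), against 6.23%. For X10 against vehicle it was 1 of 10 (Cdkn2a), against 11.0%. For IGF1 against vehicle it was 0 of 10, against 8.84%, and for X10 and IGF1 against the others 0 of 10, against 10.5%. In the F test 2 of 10 genes, Phlda3 and Cdkn2a, were under it, against 13.1%.

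**Figure D2:**
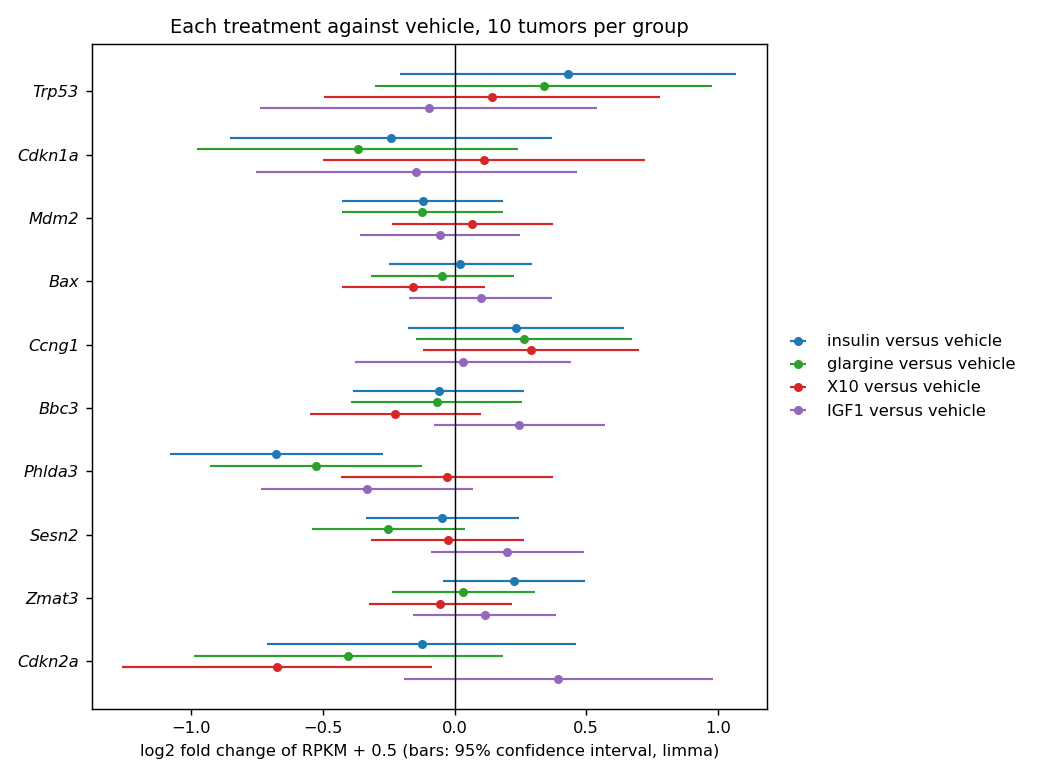
The horizontal axis gives the log2 fold change of each treatment against vehicle on the log2(RPKM + 0.5) scale, with bars for the 95% confidence interval from limma, and each row is 1 gene with its 4 treatments. The intervals of Phlda3 for insulin and glargine and of Cdkn2a for X10 exclude 0 before adjustment over all genes, and none passes after it. The vehicle tumors are shared by the 4 comparisons.

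The intervals show what size of change the data allow. For Trp53 the interval of insulin against vehicle ran from -0.21 to 1.07 on the log2 scale and that of IGF1 against vehicle from -0.74 to 0.54. For Bax it ran from -0.43 to 0.11 with X10 and from -0.17 to 0.37 with IGF1. Changes of Bax, Mdm2, Bbc3, Sesn2 and Zmat3 were thus bounded more tightly than those of Trp53, Cdkn1a and Cdkn2a, whose tumors within a group differed most.

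Genes of the wider pathway were examined in 4 lists. Of 29 tested p53 targets beyond the 10 genes, 0 passed the adjusted threshold in limma in any of the 11 comparisons or the F test, and 16 of 348 gene tests (4.60%) had an unadjusted p under 0.05, against 9.47% of the same 12 tests over all genes. The other 3 lists also lay below this background. Pmaip1, the BH3-only protein Noxa, came closest, with X10 above glargine by 0.74 on the log2 scale (SE 0.25, adjusted p = 0.131 in limma). Perp, a desmosome protein, and Xpc, a DNA damage sensor, were the next 2 by the F test, with adjusted p of 0.494 and 0.509. Of 18 regulators and relatives of p53, 0 passed, and 14 of 216 tests (6.48%) were under 0.05 unadjusted. Crebbp, a p53 acetyltransferase, was lower in X10 and IGF1 than in the other groups by a log2 fold change of -0.29 (SE 0.08, adjusted p = 0.112 in limma). Trp63 and Hipk2, a p53 relative and a p53 kinase, followed with F test adjusted p of 0.425 and 0.459.

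Of 15 genes of the p21 and p16 axis, 0 passed in limma, with 9 of 180 tests (5.00%) under 0.05 unadjusted, and Myc, Ezh2 and Rb1 had the smallest F test p, with adjusted values of 0.470, 0.499 and 0.4997. Of 10 proliferation genes 0 passed, with 3 of 120 tests (2.50%) under 0.05 unadjusted, and Mki67, Bub1 and Birc5 led with adjusted F test p of 0.610, 0.622 and 0.656. The median log2 fold change of X10 against vehicle was -0.07 over the 29 further targets and -0.08 over the p21 and p16 axis, beside -0.03 over all tested genes. For insulin against vehicle these medians were 0.03 and -0.08, beside 0.03 over all tested genes.

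The 10 genes were next compared with each other across tumors. Of the 45 pairs among the 10 genes, 20 correlated positively and 25 negatively, with a median Pearson r of -0.02 on log2 values. Over all tested genes 37.3% to 66.8% correlated positively with a given one of the 10, so these signs are near the background. After Benjamini-Hochberg adjustment over the 45 permutation tests, 9 pairs passed, 5 of them positive and 4 negative. An absolute r as large as the smallest of these, 0.37, was reached by 12.8% of the pairings of a p53 pathway gene with any other tested gene, so correlations of this size are common in these tumors. With Spearman's rho 8 pairs passed, and 6 passed by both measures. With values centred within treatment groups 6 pairs passed, all of them among the 9.

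Bax and Bbc3 were the closest pair, with r = 0.59 and rho = 0.52 (adjusted permutation p = 0.00045 and 0.0036). Leaving out the pair of tumors with the most extreme Bax values gave r = 0.52, and centring within groups gave 0.55. Sesn2 rose with both, with r = 0.51 for Bax (rho = 0.51, adjusted permutation p = 0.0036) and r = 0.50 for Bbc3 (rho = 0.38, adjusted permutation p = 0.0054). The Bbc3 value rests in part on tumor IGF1_158, the highest for both genes: leaving it out gave r = 0.37. With the 2 most extreme tumors for Bbc3 left out r was 0.29 and no longer passed (adjusted permutation p = 0.171). Among all tested genes, Sesn2 was above 97.9% in its r with Bbc3, and Bbc3 was above 98.5% in its r with Bax.

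Ccng1 correlated negatively with 3 other targets. Its r was -0.46 with Bax (rho = -0.39, adjusted permutation p = 0.00846), -0.45 with Cdkn1a (rho = -0.40, adjusted permutation p = 0.00846) and -0.37 with Sesn2 (rho = -0.30, adjusted permutation p = 0.0401). Cdkn1a and Phlda3 correlated positively (r = 0.40, rho = 0.32, adjusted permutation p = 0.0289), Phlda3 and Zmat3 negatively (r = -0.39, rho = -0.34, adjusted permutation p = 0.03). The calls of Ccng1 with Sesn2, Cdkn1a with Phlda3 and Phlda3 with Zmat3 were lost with rho (adjusted permutation p = 0.131, 0.102 and 0.0768) and with values centred within groups (0.0919, 0.0919 and 0.109). The pair of Cdkn1a and Mdm2 had r = 0.32 and rho = 0.39, with adjusted permutation p of 0.0752 and 0.0371. Cdkn1a and Sesn2 also passed by rank only (r = 0.34, rho = 0.39, adjusted permutation p = 0.0663 and 0.0371), and r was 0.52 without IGF1_158 (adjusted permutation p = 0.00405) and 0.47 without the 2 most extreme tumors for Cdkn1a (0.0105).

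Trp53 itself correlated with 1 of the 9 other genes past the threshold, Zmat3 (r = 0.41, rho = 0.40, adjusted permutation p = 0.0165). With the 2 most extreme tumors for Trp53 left out this r was 0.32 (adjusted permutation p = 0.128). Without the 4 tumors under 15 RPKM it was 0.30 (adjusted permutation p = 0.101) and did not pass either. Its r was 0.26 with Mdm2, 0.18 with Cdkn1a, -0.02 with Bax, -0.23 with Ccng1 and -0.13 with Bbc3. Single tumors moved these values. Without IGF1_158 the r of Trp53 was 0.08 with Cdkn1a, 0.07 with Bax and 0.08 with Bbc3. It was 0.15 with Mdm2 without X10_95, and -0.16 with Ccng1 without Untreated_197. Trp53 and Cdkn2a were uncorrelated over the 50 tumors (r = -0.03), and correlated positively without the 4 tumors under 15 RPKM (r = 0.41, adjusted permutation p = 0.0278 over 46 tumors). The 4 tumors were set apart by their Trp53 level itself, after its values were seen.

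**Figure D3:**
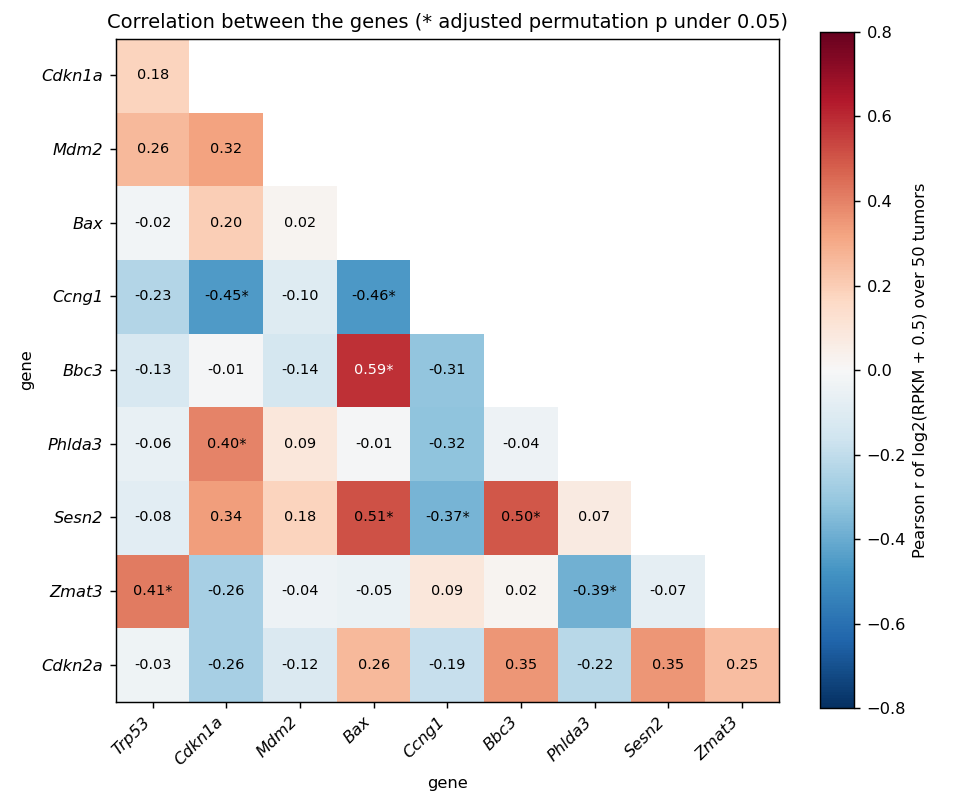
Each cell gives the Pearson r of 2 genes over the 50 tumors on log2(RPKM + 0.5), colored from blue (negative) to red (positive), with an asterisk where the adjusted permutation p is under 0.05. Bax, Bbc3 and Sesn2 form a positive block, and the row and column of Ccng1 are negative for Bax, Cdkn1a and Sesn2.

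Markers of other cell types moved with some of the genes. Of 80 relations of a gene with a marker score or library size, 6 passed after adjustment by Pearson and 2 by Spearman. Cdkn1a rose with the score of 6 mammary epithelial markers (r = 0.53, rho = 0.39, adjusted permutation p = 0.0024 for r and 0.0725 for rho) and Cdkn2a fell with it (r = -0.41, rho = -0.33, adjusted permutation p = 0.0445 and 0.158). Without the 2 tumors with the most extreme scores these r were 0.41 and -0.26. The summed level of these 6 markers was 11.2 to 5098 RPKM in vehicle tumors, 64.98 to 598.7 with insulin, 126.4 to 572.3 with glargine, 57.9 to 4151 with X10 and 9.58 to 623.4 RPKM with IGF1. Phlda3 had r = 0.38 and rho = 0.14 with the epithelial score (adjusted permutation p = 0.0627 and 0.696), and r = 0.18 without the 2 tumors with the most extreme scores. Krt14, 1 of these 6 markers, had r = 0.65 with Phlda3, and Krt16 had 0.63, both named after their values were seen. Both were among the 5 genes placed in the annotation with the highest r. With the leukocyte score Phlda3 had r = -0.36 and rho = -0.37 (adjusted permutation p = 0.0782 and 0.0776), and r = -0.51 without the 2 most extreme tumors. Ccng1 rose with the scores of leukocytes (5 markers, r = 0.51, rho = 0.43), endothelium (3 markers, r = 0.53, rho = 0.39) and skeletal muscle (4 markers, r = 0.44, rho = 0.32), with adjusted permutation p of 0.00613, 0.0024 and 0.0192 for r. By rank none of these 3 relations passed (adjusted permutation p = 0.0523, 0.0725 and 0.159 for rho). The leukocyte markers summed to 125.6 to 484.3 RPKM in vehicle tumors, 188.4 to 433.2 with insulin, 168.4 to 518.7 with glargine, 130.6 to 369.3 with X10 and 147.02 to 535.1 RPKM with IGF1. The endothelial markers summed to 35.3 to 82.8 RPKM in vehicle tumors and to 36.0 to 104.8 RPKM in the treated groups, and the muscle markers to 1.32 to 1481 RPKM in vehicle tumors and 1.47 to 3243 RPKM in the treated groups. No leukocyte, endothelial or muscle marker was at 0 in any tumor. Zmat3 rose with the 10 proliferation genes (r = 0.48, rho = 0.47, adjusted permutation p = 0.0086 and 0.0268). Trp53 passed with the same score by rank only (rho = 0.47, adjusted permutation p = 0.0268), with r = 0.31 (adjusted permutation p = 0.156). Set among all tested genes, the r with this score was above that of 92.8% for Zmat3 and of 77.9% for Trp53. For Ccng1 the share was 93.3% with the leukocyte, 99.2% with the endothelial and 98.5% with the muscle score. With the epithelial score it was 97.3% for Cdkn1a and 4.33% for Cdkn2a. The part of these cells in the differences between tumors was not tested. With the leukocyte score held constant 7 pairs passed, 5 of them among the 9. The r of Bax with Ccng1 went from -0.46 to -0.62 (adjusted permutation p = 0.00045). Ccng1 with Bbc3 went from -0.31 to -0.54 (0.0009) and Bbc3 with Cdkn2a from 0.35 to 0.41 (0.0213), and both then passed. Cdkn1a with Ccng1 (r = -0.34, adjusted permutation p = 0.0638), Cdkn1a with Phlda3, Ccng1 with Sesn2 and Phlda3 with Zmat3 did not.

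The genes most like each regulator over the 50 tumors were named by their Pearson r with it. For Cdkn1a these were Pacsin3 (0.77), Il1r2 (0.75), Pgf (0.75), Tmem40 (0.74) and Mt1 (0.73). For Trp53 they were Trp53-ps (0.90), Vangl1 (0.64), Rhbdl2 (0.60), Slco2a1 (0.59) and Epha2 (0.59). For Cdkn2a they were Exosc10 (0.67), Slc6a9 (0.66), Taf6l (0.66), Zfpm2 (0.65) and Psat1 (0.65). None of the 15 is one of the 10 genes.

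For Mdm2 the 5 genes were Rab21 (0.83), Tbk1 (0.82), Dnajc14 (0.77), Rnf41 (0.76) and Mex3d (0.76), and all 5 lie on chromosome 10 with Mdm2. Rab21 starts 2.40 megabases from the start of Mdm2, Tbk1 3.88, Rnf41 10.7 and Dnajc14 11.1 megabases, and Mex3d 37.3 megabases. Taking the 50 genes with the highest r, 50 of 50 lay on chromosome 10, which holds 4.37% of the tested genes placed in the annotation. Centring within treatment groups also gave 50 of 50. For all 16551 tested genes placed in the annotation the median count was 8 of 50 and the upper quartile 23, and 99.4% of them had a lower count than Mdm2. The median r of Mdm2 was 0.46 with the 168 genes within 20 megabases, 0.26 with all 724 on chromosome 10 and 0.01 with genes of other chromosomes. Cdk4, the kinase that p16Ink4a inhibits, starts 9.35 megabases away and had r = 0.59 with Mdm2. Its values reached 1224 RPKM around a median of 218.3, so this r may rest in part on 1 tumor.

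Of the 50 genes most like Zmat3, 38 lay on its own chromosome 3 (4.78% of tested genes), and the nearest by r was Actl6a, 0.34 megabases away (r = 0.74). Of the 50 most like Bbc3, 27 lay on chromosome 7, and of the 50 most like Bax, 23 lay on chromosome 7 (6.98% of tested genes). Ccdc9 led for Bbc3 (r = 0.72, 0.02 megabases away), and Ftl1, the neighbor of Bax 0.007 megabases away, had r = 0.80 with Bax. These counts exceed those of 90.3% of tested genes for Zmat3, 79.7% for Bbc3 and 74.8% for Bax. The share was 60.4% for Ccng1 and 51.1% for Sesn2, and between 33.5% and 48.0% for the other 4 genes. For Ccng1 the count was 13 of 50 on chromosome 11 (8.45%), with a median r of 0.23 with the 297 genes within 20 megabases, 0.03 with all of that chromosome and 0.07 with other chromosomes, and for Sesn2 it was 9 of 50 on chromosome 4 (6.91%). For Cdkn2a it was 8 of 50 (6.91%), for Phlda3 7 of 50 on chromosome 1 (5.76%), for Trp53 6 of 50 on chromosome 11 (8.45%) and for Cdkn1a 5 of 50 on chromosome 17 (4.76%). Centred within treatment groups the counts were 36 for Zmat3, 20 for Bbc3, 23 for Bax, 11 for Ccng1, 8 for Sesn2, 13 for Cdkn2a, 4 for Phlda3, 4 for Trp53 and 5 for Cdkn1a, beside an unmoved median of 8.

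**Figure D4:**
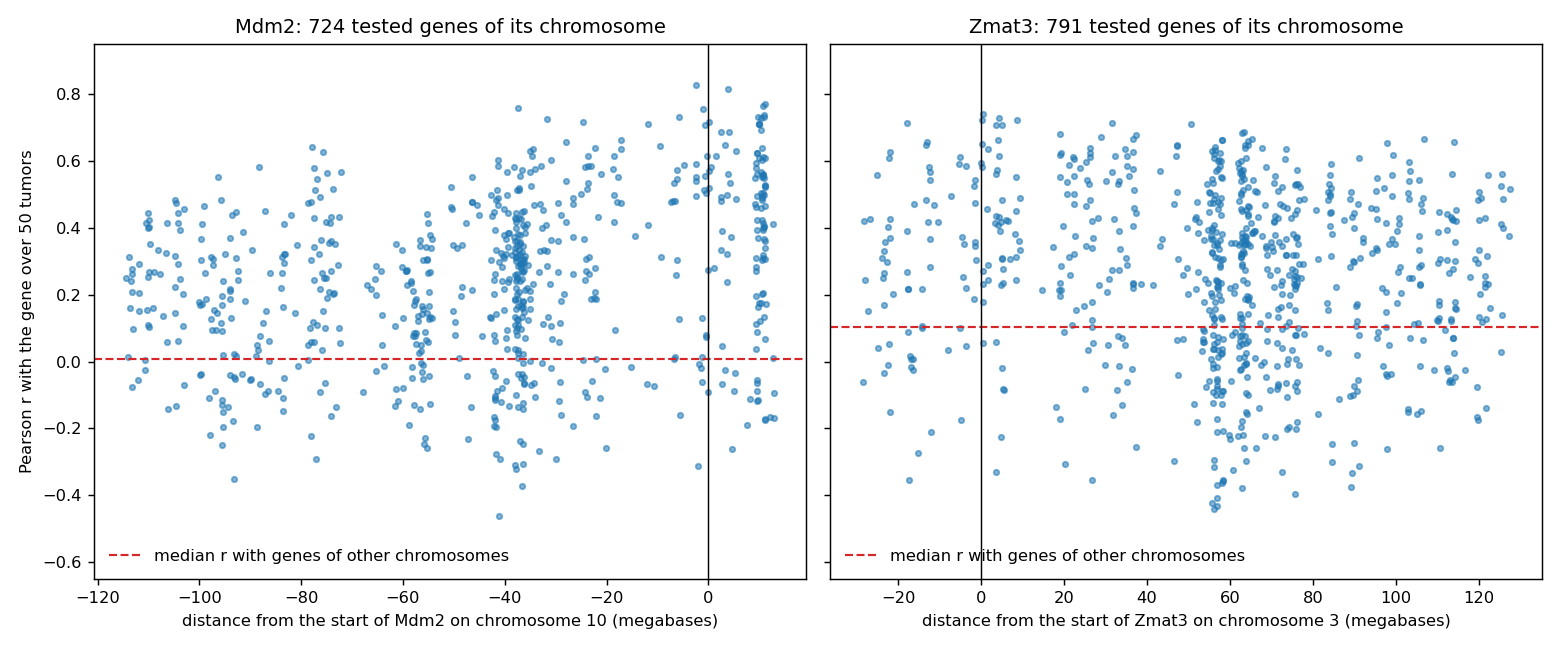
Each point is 1 tested gene of the same chromosome, the horizontal axis gives the distance of its start from the start of Mdm2 (left, 724 genes) or Zmat3 (right, 791 genes) in megabases, and the vertical axis its Pearson r with that gene over the 50 tumors. The dashed line is the median r with genes of other chromosomes, 0.01 for Mdm2 and 0.10 for Zmat3. Most points near either gene lie above the line, and for Mdm2 r is lower at greater distance.

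To measure this per tumor, a chromosome score was taken as the mean log2 deviation of the genes of a chromosome from their means over the tumors, less the same for all other chromosomes, with the 10 genes left out. The chromosome 10 score ran from -0.24 in glargine_73 to 0.36 in X10_95, the tumor with the highest Mdm2. Mdm2 followed this score with r = 0.74 and rho = 0.76 (adjusted permutation p = 3.33e-05 and 5e-05 over the 10 genes). Leaving out the 2 tumors with the most extreme scores gave r = 0.76, and so did centring within groups. Bax followed the chromosome 7 score with r = 0.62 and rho = 0.61 (adjusted permutation p = 3.33e-05), and Bbc3 followed the same score with r = 0.51 and rho = 0.36 (adjusted permutation p = 0.000375 and 0.0264). Zmat3 had r = 0.62 with chromosome 3 (rho = 0.58, adjusted permutation p = 3.33e-05) and Sesn2 r = 0.40 with chromosome 4 (rho = 0.33, adjusted permutation p = 0.00776).

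The score of their own chromosome was the highest correlated of the 20 chromosome scores for these 5 genes, that is 5 of 10, against 34.8% of all tested genes. The other 5 genes did not pass: r was 0.26 for Cdkn2a with chromosome 4, 0.20 for Cdkn1a with chromosome 17, 0.18 for Phlda3 with chromosome 1, 0.17 for Trp53 and -0.25 for Ccng1 with chromosome 11. Single tumors moved some of these: the Trp53 value was 0.03 without X10_95 and 0.35 without IGF1_145, the Cdkn1a value 0.35 without IGF1_158, and the Phlda3 value 0.11 without X10_116 and 0.27 without IGF1_160. For the median gene, r with its own chromosome was 0.26. Among the genes of its own chromosome, Mdm2 stood above 99.0% and Bax above 92.5% in this r, and Zmat3 above 76.3%.

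**Figure D5:**
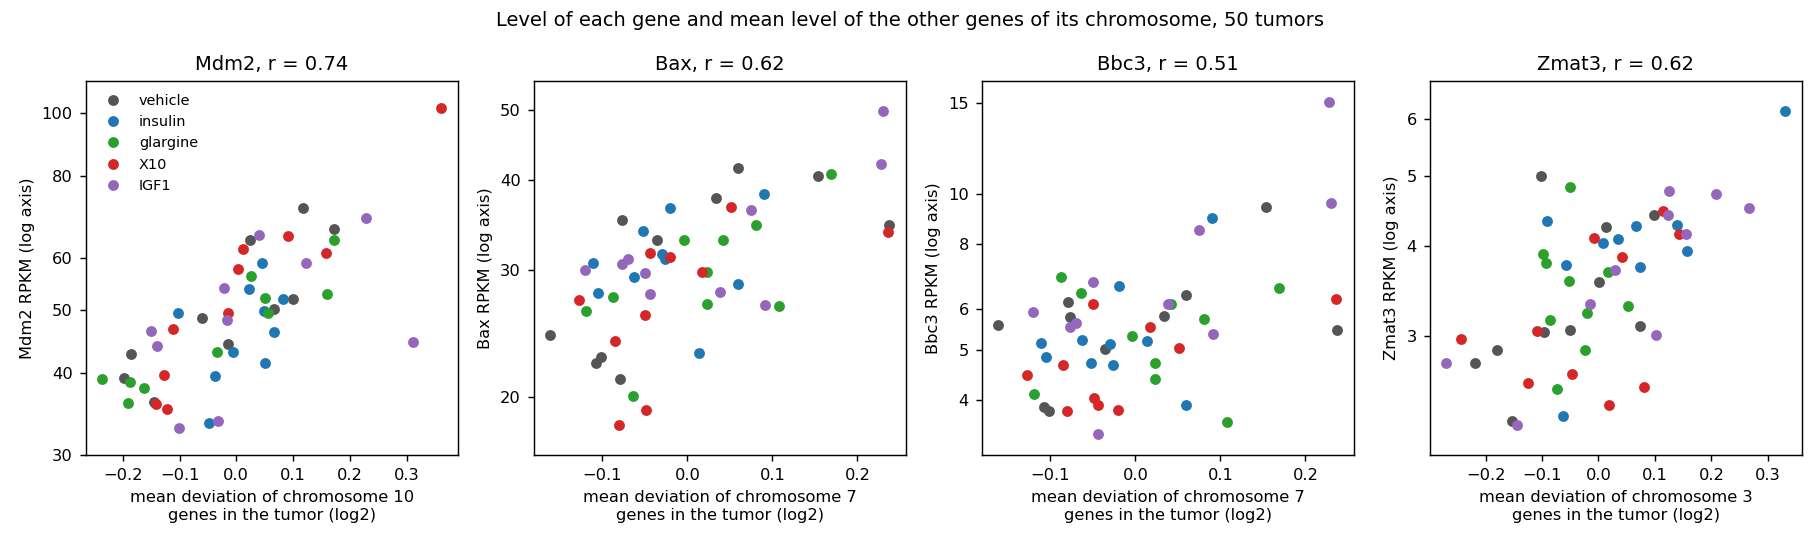
Each point is 1 tumor, colored by treatment group. The horizontal axis gives the score of the chromosome that holds the gene (mean log2 deviation of its other genes), and the vertical axis the RPKM of the gene on a log scale. The 4 genes rise with the score, with r from 0.51 for Bbc3 to 0.74 for Mdm2, and X10_95 is at the upper right for Mdm2.

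Since Bax and Bbc3 share chromosome 7, the pair correlations were repeated with each gene adjusted for the score of its own chromosome, a test added after the pattern was seen. The r of Bax and Bbc3 went from 0.59 to 0.40 (adjusted permutation p = 0.0555), that of Bax and Sesn2 from 0.51 to 0.30 (adjusted p = 0.130) and that of Trp53 and Zmat3 from 0.41 to 0.22 (adjusted p = 0.280). The r of Cdkn1a and Mdm2 went from 0.32 to 0.49 (adjusted permutation p = 0.0072) and that of Trp53 and Mdm2 from 0.26 to 0.39 (adjusted p = 0.0555). In this setting 2 pairs passed, Cdkn1a with Mdm2 and, with a negative r, Bax with Ccng1. No measurement of DNA was used here, so what moves the genes of a chromosome together was not tested.

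Cdkn1a is a standard readout of p53 activity, and the wider list of targets was set against it. Of the 29 further targets, 10 had an r above 0 with Cdkn1a, with a median of -0.13, beside a median of -0.06 and 42.3% above 0 over all tested genes. With Trp53, 17 of 29 had an r above 0, with a median of 0.07, beside a median of 0.05 and 60.6% above 0 over all tested genes. The highest with Cdkn1a were Plk3 (0.61), Cd82 (0.59) and Ddb2 (0.51) and the lowest Zfp365 (-0.57), Sesn1 (-0.48) and Rrm2b (-0.44), all 6 named after their values were seen. The 10 proliferation genes, which are not independent of each other, had a median r of 0.27 with Trp53 (10 of 10 above 0) and of -0.31 with Cdkn1a (1 of 10 above 0). Cdkn1a did not pass with their joint score (r = -0.36, rho = -0.25, adjusted permutation p = 0.0782 and 0.495).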

How the data were processed

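Poly-A selected RNA of 50 tumors (10 per group) was sequenced on an Ion Proton. Per the study's methods, the authors aligned reads to GRCm38 with TopHat2 2.0.10 and then Bowtie2 and counted them per gene with HTSeq 0.6.1 at default options. The methods describe an RPKM table, normalized to library size and gene length, as made with DEXSeq for exon expression. The deposited table holds RPKM per gene. The submitters' processing notes also name DESeq2 1.2.10 for the authors' own comparisons, which are not used here. Groups came from the sample titles.

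Values were analysed as log2(RPKM + 0.5) for 16733 genes, those whose RPKM averaged 0.5 or more. Whole reads were recovered from the value steps for 98.9% of these genes, and at least 96.5% of low values in a tumor came out whole (tolerance 0.5 scaled reads). Groups were compared with limma 3.58.1 in R 4.3.3 on all 50 tumors, with Benjamini-Hochberg adjustment over all tested genes and a threshold of 0.05. Fold changes on this scale understate the change of low genes. Correlations used two-sided permutation tests with 100000 resamples, in Python 3.11.15 with numpy 2.4.6. The procedures were tested on simulated data. Named were the 10 genes, in each list up to 5 genes past the threshold and the 3 with the smallest F test p, and the 5 genes most like Trp53, Cdkn1a, Mdm2 and Cdkn2a. Genes named outside this rule are those of the chromosome comparison and those said to be named after their values were seen. The genes, lists and tests were chosen with earlier results of these data known. The number of each tumor was taken as that of its own mouse, and on this reading the p-values measure the spread between animals. Alternatives were other pseudocounts, filters, scalings, covariates, left-out tumors and limma voom on recovered reads.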

Additional observations from a re-analysis of the deposited data

Results flagged for a closer look

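Of the 50 groups of 10 tumors examined (10 genes in 5 treatments), 2 held a tumor set apart from the rest on the log2 scale, and chance sets apart about 1 in 20 groups. Ccng1 in IGF1_160 was 11.1 RPKM, the lowest of the IGF1 tumors and of all 50, with the next IGF1 tumor at 20.9 RPKM. Zmat3 in insulin_13 was 2.33 RPKM, the lowest of the insulin tumors.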

How the results depend on the processing

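None of the 10 genes passed the threshold in any of the 1528 gene values recomputed over the 12 tests under 13 alternative limma settings, and the smallest adjusted p was 0.133, for Phlda3 in X10 against insulin. Of 1409 log2 fold changes recomputed, 31 changed sign, all uncalled. The largest was Cdkn1a in IGF1 against X10, from -0.26 to 0.14 with the epithelial score in the fit. The alternatives for the comparisons between ligands were chosen after seeing the data.

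Counts over all genes moved more. For insulin against vehicle the count of 0 became 2 when genes had to average 5 RPKM, under quantile normalization, under upper quartile scaling and when library size entered the fit, and 1 when the epithelial score entered it. For X10 against vehicle the 11 genes, all lower, became 24 with no filter (12 higher and 12 lower), 1 with library size in the fit or voom on recovered reads, 4 with only the compared groups, and 21 without X10_105. For IGF1 against vehicle 1 became 0 at an average of 5 RPKM or with only the compared groups. For X10 and IGF1 against the others 26 became 11 with no filter, 17 at an average of 5 RPKM, 51 with upper quartile scaling, 48 with the leukocyte score, 12 with library size, 14 with voom and 110 without X10_105. In the F test 17 became 0 with no filter or library size, 6 with quantile normalization, 3 with voom and 55 without X10_105. Between the ligands, the 17 genes of X10 against insulin became 8 with no filter, 30 with the leukocyte score, 6 with library size, 9 with voom, 31 with only the compared groups and 66 without X10_105. The 298 of X10 against glargine became 142 with no filter, 169 with quantile normalization, 153 with library size, 140 with voom and 460 without X10_105. The 1 gene of IGF1 against insulin became 0 in 10 of the 13 settings, all but a pseudocount of 1, an average of 5 RPKM and the epithelial score. Quantile normalization moved the split of higher and lower genes from 4 and 13 to 6 and 7 for X10 against insulin. For X10 and IGF1 against the others the split moved from 2 and 24 to 10 and 10, and to 10 and 41 with upper quartile scaling. The cause was not tested.

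Of the 9 called pairs, Bax with Ccng1 passed under all 13 alternatives, Bax with Bbc3 and Bax with Sesn2 under 12, Bbc3 with Sesn2 and Cdkn1a with Ccng1 under 11, Trp53 with Zmat3 under 10, Ccng1 with Sesn2 under 8, Cdkn1a with Phlda3 under 7 and Phlda3 with Zmat3 under 6. The count of 9 became 5 (4 shared) without the 2 tumors farthest from the median and 2 (1 shared) with each gene adjusted for its own chromosome, and 13 (8 shared) without the 4 tumors with low Trp53. The remaining settings gave 6 to 12, with 11 (9 shared) without IGF1_158. Trp53 with Cdkn2a turned from -0.03 to 0.41 without the 4 tumors with a Trp53 RPKM under 15. No paired analysis was possible because the groups do not share replicate numbers.

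The annotation behind the lengths, the share of Trp53 reads from Trp53-ps and the tumor cell content could not be measured here, and with 10 tumors per group the intervals of Trp53, Cdkn1a and Cdkn2a leave room for sizeable changes.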
